A study of Mus musculus with 8 samples.

Results

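The genes described here make and remodel the phospholipids and sphingolipids of liver membranes. They were taken as a list of 44 symbols, and each was read from the brightest row of the array table that carried that gene alone. Of the 44, 41 had such a row, among 22180 genes measured in all. Chkb and Cept1 appeared only on rows shared with other genes, and those rows were not assigned to them; Etnk2 was not analysed here. The 41 fell into 5 branches: 8 genes of choline metabolism, 5 of ethanolamine and serine metabolism, 13 of acyl chain remodelling, 6 of the CDP-diacylglycerol route to inositol lipids and cardiolipin, and 9 of sphingolipid metabolism.

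Phosphatidylcholine is built in liver either from choline, through choline kinase, a cytidylyl transferase and a cholinephosphotransferase, or by methylation of phosphatidylethanolamine, a route in which hepatocytes are unusually active. Lyso-acyltransferases and phospholipases then exchange the acyl chains of finished lipids, and cardiolipin is made inside mitochondria from CDP-diacylglycerol. Ceramide, the base of sphingomyelin and glucosylceramide, is assembled from serine and palmitoyl-CoA in the endoplasmic reticulum. In hepatocytes these lipids go into membranes, bile and the surface of lipoproteins.

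The study compared livers of 3-month-old mice that, per the design text, had a floxed gene for NCOR, a nuclear receptor corepressor, and ate a normal chow diet. In the 4 NCOR_KO mice an adeno-associated virus given intravenously carried Cre recombinase, and in the 4 WT mice, labelled wild-type, it carried GFP. Tissue was collected 2 weeks after injection at 5 pm, ZT10 of the light cycle, and total RNA was hybridised to Affymetrix Mouse Gene 2.0 arrays. The labels and the design text differ on whether the controls carried the floxed allele, the promoter driving Cre was not given in the sources used here, and Cre and loss of NCOR cannot be told apart.

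Array medians ran from 41.0 to 44.1 on the linear intensity scale. No pair of arrays held identical values. Over all genes the second principal component, with 20.4% of the variance, had WT replicate 2 and NCOR_KO replicate 1 at its low end, so results were also computed without both. Ncor1 was not analysed here, and its level was therefore not used to check which arrays came from knockout livers. Nothing ties an array to a named animal, and p-values therefore measure the spread between these samples. The hepatocyte marker list, led by Alb at a mean log2 intensity of 13.52, was bright in all 8 arrays, as the tissue label says.

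Choline kinase alpha was the member that changed. Chka rose, and the other 40 members did not pass the threshold, a limma p-value adjusted by Benjamini-Hochberg over all 22180 genes under 0.05. Of the 41 members 1 rose and 0 fell, or 2.44%. Across all genes 366 were called, or 1.65%, of which 0.816% rose and 0.834% fell, so the share among the members lay near the background. The count of members remained 1 without WT replicate 2 and NCOR_KO replicate 1 together.

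**Figure D1:**
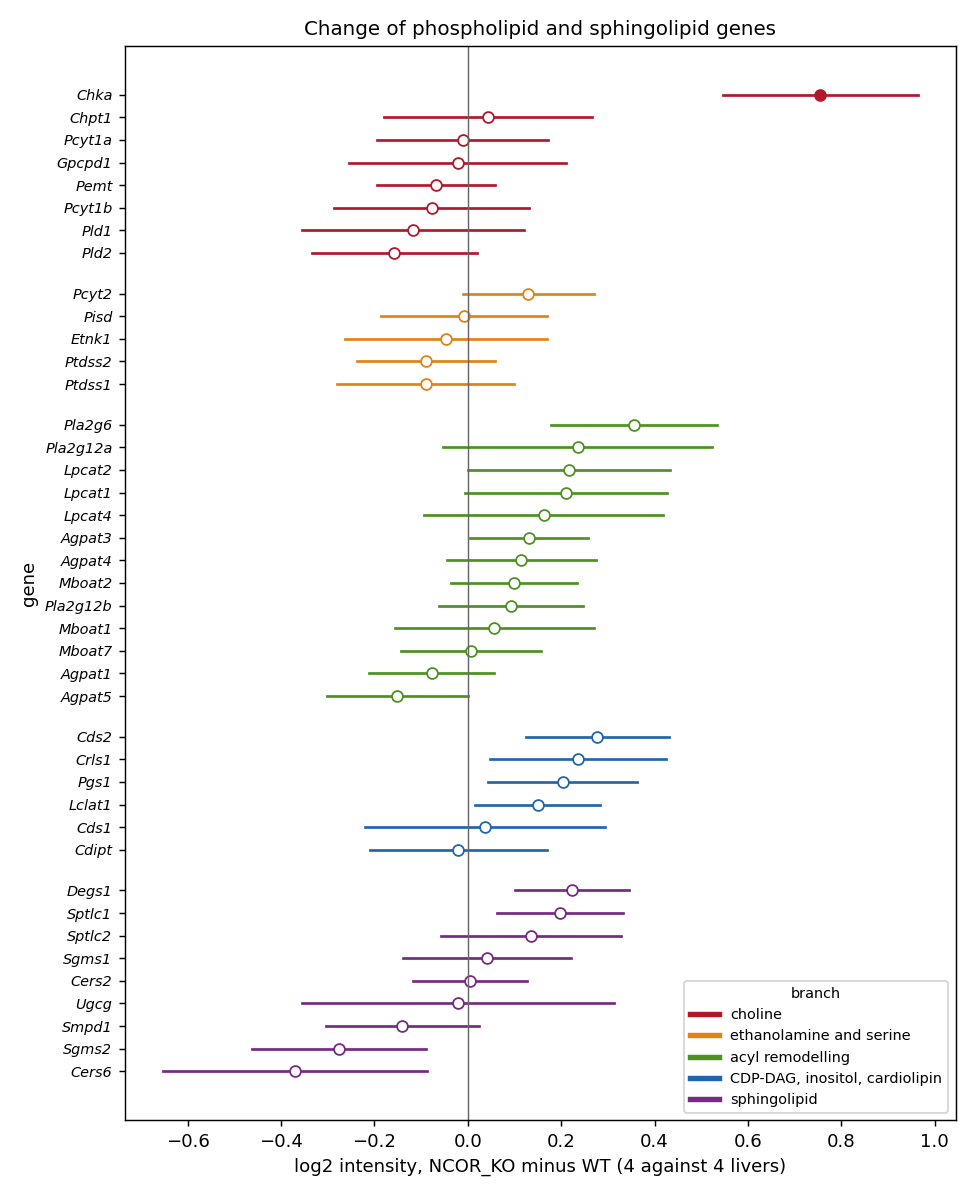
Log2 intensity in NCOR_KO minus WT liver for each of the 41 genes (points; filled where the limma adjusted p was under 0.05), with 95% intervals of the fit as lines, coloured and grouped by branch. Chka stands at 0.75, to the right of all other intervals.

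The upstream sequence of Chka and of the 3 members with the next lowest adjusted p is shown so that the changed gene can be read beside those that came nearest to the threshold. Each run covers the 250 bases before the annotated start of transcription, 5′ to 3′ on the gene's strand, from RefSeq on build GRCm38.p6, and for Cds2, which has 2 annotated starts, before the more upstream one. Capitals mark any match, on either strand, to the nuclear receptor motif AGGTCA, to its direct repeats AGGTCANAGGTCA and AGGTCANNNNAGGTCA, to the ROR and REV-ERB motif AANTAGGTCA, which contains the same hexamer, or to the E-box CACGTG read by clock and other basic helix-loop-helix factors.
Chka, chr19:3851523-3851772, plus strand: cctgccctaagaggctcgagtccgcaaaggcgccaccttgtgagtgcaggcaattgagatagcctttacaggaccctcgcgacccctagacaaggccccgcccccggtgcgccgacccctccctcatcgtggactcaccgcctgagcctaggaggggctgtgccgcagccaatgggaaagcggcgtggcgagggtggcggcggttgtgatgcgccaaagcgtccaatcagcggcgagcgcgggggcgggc
Pla2g6, chr15:79328372-79328621, minus strand: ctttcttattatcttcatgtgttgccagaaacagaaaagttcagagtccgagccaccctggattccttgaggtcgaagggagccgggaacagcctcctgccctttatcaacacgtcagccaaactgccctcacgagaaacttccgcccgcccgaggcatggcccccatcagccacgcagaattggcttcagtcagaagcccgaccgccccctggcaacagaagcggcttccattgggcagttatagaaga
Degs1, chr1:182282196-182282445, minus strand: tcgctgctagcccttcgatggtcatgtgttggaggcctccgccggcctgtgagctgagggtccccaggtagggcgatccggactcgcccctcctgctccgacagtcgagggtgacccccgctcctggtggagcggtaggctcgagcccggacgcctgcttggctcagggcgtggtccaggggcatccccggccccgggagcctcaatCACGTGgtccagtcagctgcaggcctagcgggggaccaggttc
Cds2, chr2:132262898-132263147, plus strand: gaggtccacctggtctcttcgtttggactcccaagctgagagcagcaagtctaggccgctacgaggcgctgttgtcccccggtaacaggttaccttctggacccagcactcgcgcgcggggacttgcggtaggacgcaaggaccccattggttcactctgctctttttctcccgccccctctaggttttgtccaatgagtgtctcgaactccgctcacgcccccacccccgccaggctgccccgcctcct

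Of these 4 windows only that of Degs1 held a match, an E-box from 43 to 38 bases before the start. Windows were given for 36 of the 41 members. In the counts that follow, a gene had a motif if any of its windows held a match. A gene with more annotated starts thus had more windows in which to match. An E-box was found for 5 of the 36 members, or 13.9% (Cers2, Cers6, Crls1, Degs1 and Sgms2), and for 6.86% of the 27025 genes with a window. AGGTCA was found for 5 members, or 13.9% (Agpat1, Cers2, Sgms1, Sgms2 and Smpd1), and for 15.8% of all genes. The direct repeats and the ROR motif were found for 0 members and for 0.0407%, 0.0148% and 0.211% of all genes. A match describes letters in a window and does not show binding.

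Chka encodes the kinase that phosphorylates choline, the entry step of the choline route. Its log2 intensity was 7.83, 7.77, 7.68 and 7.60 in WT livers 1 to 4 and 8.56, 8.52, 8.62 and 8.20 in NCOR_KO livers 1 to 4. Each knockout liver lay above every control, and NCOR_KO replicate 4 was the lowest of its group. The means were 7.72 ± 0.10 and 8.47 ± 0.19 (SD, n = 4), a log2 difference of 0.75 ± 0.09 (SE) with a 95% interval of 0.55 to 0.96, or 1.69-fold (limma adjusted p = 0.00435). A second row for Chka was dim, with a mean log2 intensity of 4.93 against 5.88 for the median gene, and its difference was 0.23 ± 0.11 (SE). Of the 41 members 6 lay below that median level and are called dim here. With the mean of both rows in place of the brighter one, the difference was 0.49 and the limma adjusted p 0.00933. Chka passed in all 16 alternative fits, with adjusted p-values from 0.00135 to 0.0250.

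The later steps of the same route did not pass. Pcyt1a, the cytidylyl transferase that is usually rate-limiting for phosphatidylcholine synthesis, differed by -0.01 ± 0.08 (SE), and its isoform Pcyt1b, a dim row, by -0.08 ± 0.09. Chpt1, the cholinephosphotransferase that joins CDP-choline to diacylglycerol, differed by 0.04 ± 0.10. The 95% interval of Pcyt1a ran from -0.19 to 0.17 and that of Chpt1 from -0.18 to 0.27, both below the interval of Chka, although the difference between the genes was not tested. Pemt, which methylates phosphatidylethanolamine, lay at 10.69 ± 0.05 in WT and 10.62 ± 0.05 in NCOR_KO liver (SD, n = 4), with a 95% interval for the difference of -0.19 to 0.06. Pld1 and Pld2, phospholipases that release choline from phosphatidylcholine, differed by -0.12 ± 0.11 and -0.16 ± 0.08 (SE), or by -0.01 without NCOR_KO replicate 1 for Pld1 and -0.10 without WT replicate 1 for Pld2. Gpcpd1, which cleaves glycerophosphocholine, differed by -0.02 ± 0.11. In the choline branch as a whole 2 of 8 members lay above 0, and the median difference was -0.04 with Chka included.

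**Figure D2:**
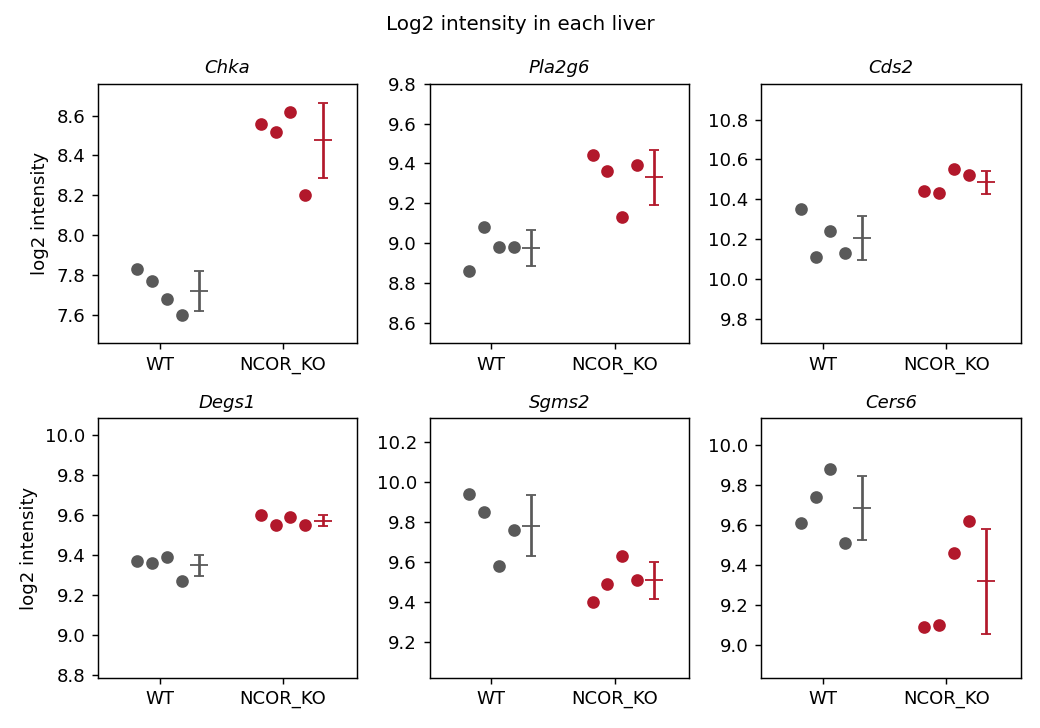
Log2 intensity of 6 members in each of the 4 WT (grey) and 4 NCOR_KO (red) livers, with the group mean and SD as a bar beside the points; every panel spans the same 1.3 log2 units. The groups of Chka, Pla2g6, Cds2 and Degs1 do not overlap, while those of Sgms2 and Cers6 do.

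Genes of ethanolamine and serine metabolism did not pass in any of 5 cases. Pcyt2, the cytidylyl transferase of the ethanolamine route, had the lowest p of the branch. It read 10.66, 10.72, 10.77 and 10.75 in WT livers 1 to 4 and 10.97, 10.84, 10.87 and 10.75 in NCOR_KO livers 1 to 4. The groups overlapped through NCOR_KO replicate 4, and the difference was 0.13 ± 0.06 (SE; limma adjusted p = 0.348). Etnk1, an ethanolamine kinase, differed by -0.05 ± 0.10, and Pisd, the mitochondrial phosphatidylserine decarboxylase, by -0.0088 ± 0.08. The phosphatidylserine synthase genes Ptdss1 and Ptdss2 both differed by -0.09 (SE 0.09 and 0.07). The branch median was -0.05, and 1 of the 5 lay above 0.

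In the remodelling branch 11 of 13 members lay above 0, with a median of 0.11, against 0.0063 for all genes, and 0 passed. The closest to the threshold was Pla2g6, the calcium-independent phospholipase A2 that frees an acyl chain and leaves a lysophospholipid. It read 8.86, 9.08, 8.98 and 8.98 in WT livers 1 to 4 and 9.44, 9.36, 9.13 and 9.39 in NCOR_KO livers 1 to 4. The groups did not overlap, although NCOR_KO replicate 3 lay close to the highest control. The difference was 0.36 ± 0.08 (SE) with a limma adjusted p of 0.0586. Without NCOR_KO replicate 3 it was 0.42 with an adjusted p of 0.0326, and over all 16 alternatives Pla2g6 was called in 5.

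The lysophosphatidylcholine acyltransferase genes lay close together. Lpcat1 differed by 0.21 ± 0.10 (SE; limma adjusted p = 0.323). Lpcat2, which also makes platelet-activating factor and is known from inflammatory cells, differed by 0.22 ± 0.10 (limma adjusted p = 0.314). Lpcat4, on a dim row, differed by 0.16 ± 0.12 (limma adjusted p = 0.531). Their group values overlapped in each case, and WT replicate 2 was the lowest control for all 3, at 5.91, 5.85 and 5.39. Without that array their differences were 0.12, 0.18 and 0.06. Among the genes that acylate lysophosphatidic acid or related lipids, Agpat3 differed by 0.13 ± 0.06 (limma adjusted p = 0.298). Its groups were only just parted, at 10.12 in WT replicate 2 and 10.13 in NCOR_KO replicate 4. Agpat4, on a dim row, differed by 0.11 ± 0.07, Agpat1 by -0.08 ± 0.06 and Agpat5 by -0.15 ± 0.07. Mboat7, which puts arachidonate into phosphatidylinositol, differed by 0.0066 ± 0.07, and its relatives Mboat1 and Mboat2, both dim, by 0.06 ± 0.10 and 0.10 ± 0.06. Pla2g12a, a secreted phospholipase A2, differed by 0.24 ± 0.13 (0.14 without WT replicate 3), and Pla2g12b, a catalytically inactive relative that is needed in mouse liver for lipoprotein lipidation, by 0.09 ± 0.07.

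Markers of some other liver cells, but not all, were higher in the NCOR_KO livers. Over all genes 1.65% were called in either direction. All 10 endothelial markers lay above 0, with a median difference of 0.23, 1 rose and 9 did not pass, and their summed intensity was 6721 to 8154 in WT and 7961 to 9227 in NCOR_KO liver. The 6 measured cholangiocyte markers also lay above 0, with 1 that rose. They summed to 356.4 to 368.0 in WT and 413.6 to 477.8 in NCOR_KO liver, without overlap. Of these markers 3 lay below the level of the median gene, and the brightest was Sox9 at a mean log2 intensity of 7.34. Of 8 lymphocyte markers 2 rose and 6 lay below the level of the median gene. Their sums overlapped, at 419.3 to 491.5 and 468.5 to 566.1. Kupffer cell and macrophage markers summed to 2903 to 5583 in WT and 3453 to 6066 in NCOR_KO liver, with 0 of 10 past the threshold, and their lowest sums were those of WT replicate 2 and NCOR_KO replicate 1. Stellate cell markers had 0 of 10 past the threshold and a median of 0.0082, with sums of 5073 to 5687 and 5046 to 5935. The 10 hepatocyte markers had a median of -4.0e-04, 0 past the threshold, and sums of 72004 to 74764 and 72735 to 73602. The largest marker difference was 0.50, for the lymphocyte marker Cd79b. The largest was 0.41 among cholangiocyte markers, for Epcam, and 0.35 among endothelial markers, for Robo4. The part of these cells in the members' differences was not tested. In whole liver, more cells of a type and more RNA per cell cannot be told apart.

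**Figure D3:**
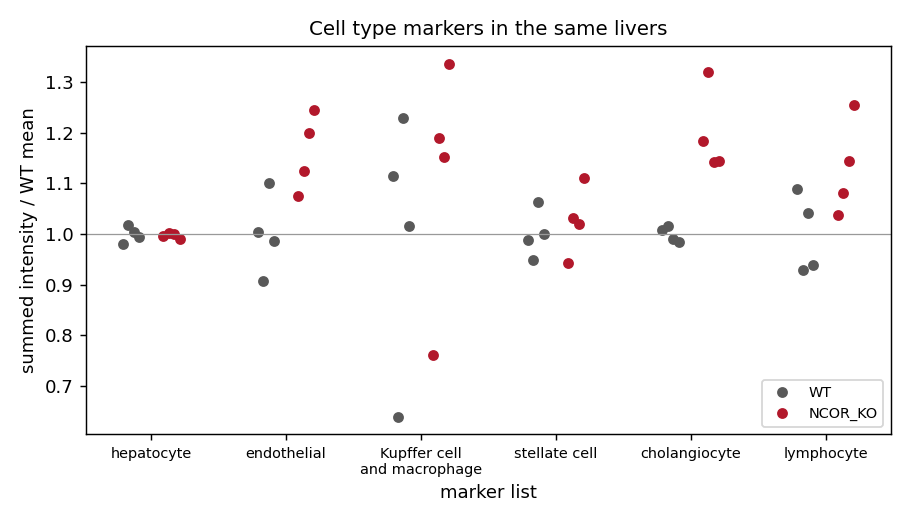
Summed linear intensity of each marker list in each liver, divided by the mean of the 4 WT livers, for WT (grey) and NCOR_KO (red). Hepatocyte sums lie near 1 in all 8 livers, cholangiocyte sums do not overlap between groups, and Kupffer cell sums are lowest in WT replicate 2 and NCOR_KO replicate 1.

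In the CDP-diacylglycerol branch 5 of 6 members lay above 0, with a median of 0.18, and 0 passed. Cds2, a CDP-diacylglycerol synthase, was nearest. It read 10.35, 10.11, 10.24 and 10.13 in WT livers 1 to 4 and 10.44, 10.43, 10.55 and 10.52 in NCOR_KO livers 1 to 4. Each knockout value lay above the highest control, WT replicate 1, and the difference was 0.28 ± 0.07 (SE; limma adjusted p = 0.0801). Its paralog Cds1, on a dim row, differed by 0.04 ± 0.12. Of the enzymes that lead from CDP-diacylglycerol to cardiolipin, only Pgs1 and Crls1 were members, and others were read among the neighbouring genes below. Pgs1, the phosphatidylglycerophosphate synthase, differed by 0.20 ± 0.07, and Crls1, the cardiolipin synthase, by 0.24 ± 0.08. Their limma adjusted p-values were 0.203 and 0.210. Lclat1, a lysocardiolipin acyltransferase, differed by 0.15 ± 0.06 (limma adjusted p = 0.261). Its groups were only just parted, at 9.93 in WT replicate 4 and 9.94 in NCOR_KO replicate 3. Cdipt, which makes phosphatidylinositol from the same precursor, differed by -0.02 ± 0.09. At an unadjusted limma p under 0.05, 4 of the 6 passed, all higher in the knockout, but with each array centred on its median 1 did, and without WT replicate 2 and NCOR_KO replicate 1 2 did. The background at that threshold was 15.9% of all genes with all arrays and no centring, and was not given for the other settings.

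Sphingolipid genes went both ways, and 0 of 9 passed. Among those that make ceramide, Degs1, the desaturase that turns dihydroceramide into ceramide, read 9.37, 9.36, 9.39 and 9.27 in WT livers 1 to 4 and 9.60, 9.55, 9.59 and 9.55 in NCOR_KO livers 1 to 4. The groups were parted by more than the spread within either, and the difference was 0.22 ± 0.05 (SE; limma adjusted p = 0.0779). Sptlc1 and Sptlc2, the subunits of the serine palmitoyltransferase that starts the route, differed by 0.20 ± 0.06 and 0.14 ± 0.09 (limma adjusted p = 0.144 and 0.485). Without WT replicate 2 that of Sptlc2 was 0.06. Sptlc1 did not overlap between groups.

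Of the ceramide synthase genes, Cers2, which uses very long acyl chains and is the main form in liver, read 11.03 ± 0.04 in WT and 11.04 ± 0.05 in NCOR_KO liver (SD, n = 4), a difference of 0.0052 ± 0.06 (SE) whose sign turned in 5 of 16 alternatives. Cers6, which makes ceramide with palmitate, read 9.61, 9.74, 9.88 and 9.51 in WT livers 1 to 4 and 9.09, 9.10, 9.46 and 9.62 in NCOR_KO livers 1 to 4. NCOR_KO replicates 1 and 2 lay well below all controls, while replicates 3 and 4 lay near or within their range. The difference was -0.37 ± 0.13 (SE; limma adjusted p = 0.192), and its 95% interval, -0.65 to -0.09, was the widest among the members apart from Ugcg and Pla2g12a.

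Of the genes that use ceramide, Sgms2, a sphingomyelin synthase, read 9.94, 9.85, 9.58 and 9.76 in WT livers 1 to 4 and 9.40, 9.49, 9.63 and 9.51 in NCOR_KO livers 1 to 4. The groups overlapped through WT replicate 3 and NCOR_KO replicate 3, and the difference was -0.28 ± 0.08 (SE; limma adjusted p = 0.142). Its paralog Sgms1 differed by 0.04 ± 0.08. Ugcg, the glucosylceramide synthase, had the largest spread among knockout livers (SD 0.31, n = 4), at 7.83 and 7.99 in replicates 1 and 2 and 8.47 and 8.37 in replicates 3 and 4, and differed by -0.02 ± 0.15. Smpd1, the acid sphingomyelinase, differed by -0.14 ± 0.07 (-0.07 without WT replicate 1), and its second row gave the same estimate of -0.14.

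**Figure D4:**
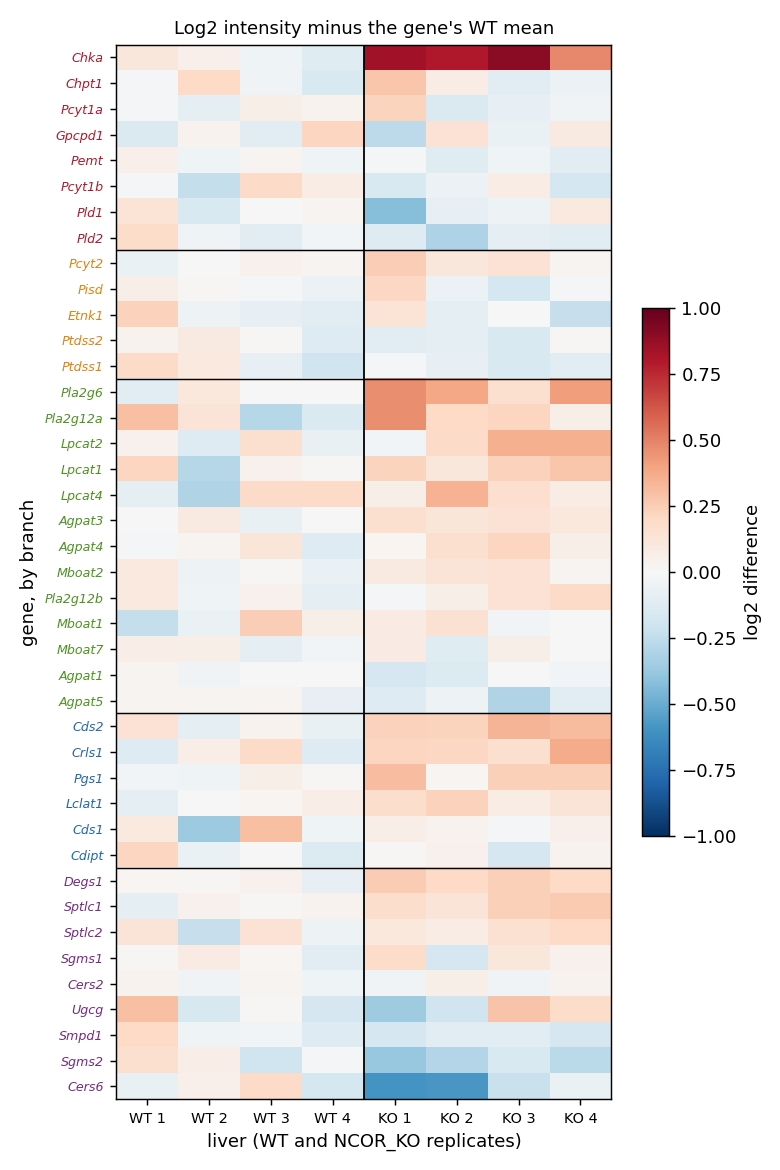
Log2 intensity of each of the 41 genes in each liver minus that gene's WT mean, with genes grouped by branch (label colours as in the plot of changes by branch) and livers as columns. Chka is higher in all 4 NCOR_KO livers, and Cers6 and Ugcg are lower in NCOR_KO replicates 1 and 2 than in replicates 3 and 4.

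Over the 41 members the median difference was 0.04, against 0.0063 over all genes. With each array centred on its median it became -0.0027, against -0.0372 over all genes. Its sign thus depended on the scaling, while the members' median lay above that of all genes with either scaling. In 7 of the 41, or 17.1%, the 4 knockout values did not overlap the 4 controls, all of them higher. Of all 22180 genes 10.4% were parted in either direction, 1087 higher and 1218 lower. Parted genes were counted without centring only. An unadjusted limma p under 0.05 was reached by 12 members, or 29.3%, 9 higher and 3 lower, against 15.9% of all genes. With centring these became 4 higher and 5 lower, and without WT replicate 2 and NCOR_KO replicate 1 they became 8 higher and 0 lower. The share of all genes at that p was not given for these other settings, so these counts have no background beside them. The size of intensity difference that the arrays leave possible was limited. For 39 of the 40 members that did not pass, the 95% interval lay within 1.5-fold in either direction, Cers6 being the exception, and for 31 it lay within 1.3-fold. These intervals are for single genes and are not adjusted for the number of genes. They describe array intensity, not amounts of transcript, and include the 6 dim members.

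Of 14 paralog or partner pairs set side by side, 11 had both genes measured, and no gene in these 11 pairs passed the threshold. Agpat4, on a dim row, and Agpat5 had estimates of opposite sign, also with quantile normalization and with median centring. The estimates of Cers2 and Sgms1 were opposite in sign to those of Cers6 and Sgms2 but near 0, and with median centring they were -0.04 and -0.0027, the same sign as their partners. Differences within pairs were not tested. Chka, Chpt1 and Etnk1 had a partner, Chkb, Cept1 and Etnk2, without a value.

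Neighbouring genes of the same pathways were read from 4 further lists. Of 98 measured there 3 rose, 1 fell and 94 did not pass, or 4.08% called against 1.65% of all genes, with a median of 0.02. The lists were chosen with earlier results of these data known, so the difference between these shares cannot be read as a result. Kdsr, the reductase that acts between serine palmitoyltransferase and the ceramide synthases, rose. It read 9.36, 9.17, 9.22 and 9.23 in WT livers 1 to 4 and 9.60, 9.62, 9.58 and 9.56 in NCOR_KO livers 1 to 4, without overlap, a difference of 0.35 ± 0.06 (SE; limma adjusted p = 0.0220). In 34 other sphingolipid genes it was the 1 that passed.

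Abhd6, a hydrolase of monoacylglycerol and lysophospholipids, rose by 0.41 ± 0.07 (SE; limma adjusted p = 0.0198), from 10.52 ± 0.02 to 10.93 ± 0.12 (SD, n = 4). Pla1a, a phospholipase that acts on phosphatidylserine, fell by 0.43 ± 0.08 (SE; limma adjusted p = 0.0348), from 9.79 ± 0.04 to 9.36 ± 0.17 (SD, n = 4). These were 2 of 22 other phospholipase genes. Lpcat3, which places polyunsaturated chains in phosphatidylcholine and is a known target of the sterol receptor LXR, rose by 0.30 ± 0.06 (SE; limma adjusted p = 0.0326) and was the 1 of 25 further genes of phosphatidylcholine and phosphatidylethanolamine metabolism to pass. Of 17 other cardiolipin and inositol lipid genes 0 passed with limma. An unadjusted limma p under 0.05 was reached by 2, or 11.8%, both lower in the knockout, against 15.9% of all genes. The calls of Kdsr, Abhd6, Pla1a and Lpcat3 were lost in 7, 6, 7 and 10 of 16 alternatives, all 4 with WT replicate 2 and NCOR_KO replicate 1 left out. Lpcat3 lost its call whichever single array was left out, with adjusted p-values of 0.0577 to 0.0843 at differences of 0.28 to 0.32, close to the 0.30 with all arrays.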

How the data were processed

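RNA was extracted with Trizol from 8 livers, labelled with biotin and hybridised, 1 array per liver; groups and replicate numbers came from the sample titles. The table holds intensity values of probe sets, deposited by the authors on a linear scale. RMA and Partek appear in the submitters' processing notes, with no role, version or genome build stated in the sources used here. The values were converted to log2 and not normalized again. Of 41345 rows, 23521 carried 1 gene, 1814 several and 16010 none. For each gene the brightest row by mean over 8 arrays was used, 22180 genes in all, dim genes included. The test was limma 3.58.1 in R 4.3.3 (lmFit, eBayes; group as the only term), with Benjamini-Hochberg adjustment over the 22180 genes and a threshold of 0.05. Steps were tested on simulated data. Members, branches, lists, motifs and alternatives were chosen with earlier results of these data known. Full values were given for members past the threshold and, in branches with none, for the member with the lowest p; Sgms2, Cers6 and Ugcg were added after their values were seen. Further genes were named where they passed in the lists of neighbouring genes, 98 of whose 109 symbols were measured. Alternatives were other normalizations, variance models, array weights, a level filter, the mean of a gene's rows, a replicate block, other thresholds and arrays left out. Promoter windows came from RefSeq, GRCm38.p6. Precision is limited by the number of arrays.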

Additional observations from a re-analysis of the deposited data

Results flagged for a closer look

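With 4 values per group, a value far from the other 3 by Dixon's criterion was found in 4 of 90 groups looked at, where chance gives about 1 in 20. WT replicate 1 was high for Etnk1, at a log2 intensity of 9.51 against 9.18 to 9.23 in the other controls. The same liver was low for Sptlc1, at 8.13 against 8.24 to 8.27. WT replicate 4 was low for Agpat5, at 8.04 where the others all lay at 8.15. NCOR_KO replicate 3 was low for Cdipt, at 9.78 against 9.96 to 9.99. None of the 4 genes passed the threshold with or without the array concerned.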

How the results depend on the processing

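The count of members called was 1 with median centring, the mean of rows, the replicate block, a threshold of 0.01 and both arrays left out. It was 2 with quantile normalization and with array weights, 3 with trend and robust variance, 4 with genes at or above the median level and 4 at a threshold of 0.1, and 1 to 2 with single arrays left out, the 2 without NCOR_KO replicate 3. Besides Chka, called throughout, these were Pla2g6, Cds2 and Degs1. Over 650 member fits no call was lost or reversed and 8 were gained; 12 members with differences up to 0.06 and no call in any fit changed sign in at least 1. Across all genes the count of 366 (181 rose, 185 fell) became 551 at or above the median level, 155 with the replicate block, 88 and 807 at thresholds of 0.01 and 0.1, 160 over every probe set, 202 without both arrays, and 120 to 297 without single arrays. With median centring 147 rose and 383 fell. The values showed no pairing of livers by replicate number: deviations of same-numbered livers correlated from -0.094 to 0.017, and 0 of 4 controls were closest to their own number. These correlations cannot tell whether same-numbered livers were handled together. The causes were not tested.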
